A study of Mus musculus with 10 samples.

Results

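The clustered protocadherin genes of the mouse were examined in chromatin immunoprecipitation sequencing (ChIP-seq) data from skeletal muscle. The members were the RefSeq genes with an NM_ transcript on chromosome 18 of the mouse genome build mm10 (GRCm38) whose symbols begin with Pcdha, Pcdhb or Pcdhg followed by a letter or a digit. This rule gave 57 members of 21000 NM_ genes: 14 Pcdha, 22 Pcdhb and 21 Pcdhg genes, each with 1 NM_ transcript on the plus strand. The study profiled the glucocorticoid receptor (GR), the histone demethylase LSD1, and histone H3 mono- or dimethylated at lysine 9 (H3K9me1, H3K9me2) in muscle of C57BL/6J mice labelled as 10 weeks old that were either fed or starved for 24 h. The labels name no engineered allele and no drug in any group, so fed and starved mice differed by food withdrawal as far as the labels state. There was 1 library for each antibody and condition plus 1 input library per condition, 10 in all, and the 8 antibody libraries each gave 1 list of broad peaks called over input.

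With 1 library per group there was no replicate check, no test between conditions was possible, and the intervals given below cover counting error only. Sequencing depth is unknown, because the lists hold no read counts. The chromatin came from muscle tissue with its several cell types, so that occupancy in few cells and no occupancy cannot be told apart. The lists differed in length between 6624 peaks (H3K9me2 starved) and 171402 peaks (H3K9me2 fed), and the share of peaks at or under a q-value of 0.01 differed between 10.2% (LSD1 starved) and 70.4% (GR fed). Since the study's methods state a false discovery rate of at most 0.01, the lists as deposited hold many peaks beyond that limit. The library codes in the labels changed with feeding for H3K9me1 and H3K9me2, so that condition and code cannot be told apart for either mark. The study's file names also give GR and LSD1 a different library code in each condition, so the same holds for them. The tissue label was checked on promoters: 9 of 12 muscle fibre genes and 0 of 8 neuronal genes had a GR or LSD1 promoter peak in any of the 4 lists, beside 1 of 6 Schwann cell and 2 of 4 endothelial genes and 41.7% of all NM_ genes. These lists are short, and the exact interval of 0 of 8 reached 36.9%. Among the muscle genes, Des (desmin, the muscle intermediate filament) had a GR promoter peak with a fold enrichment of 5.07 in fed and 3.97 in starved muscle, and Ckm (muscle creatine kinase) of 4.80 and 3.40.

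Clustered protocadherins are cadherin-like adhesion proteins of the cell surface, best known in neurons, where combinations of them give each cell an identity by which it recognises its own branches. In the Pcdha and Pcdhg clusters a long variable exon with its own promoter encodes the extracellular part of each protein and is spliced to constant exons that all members of the cluster share, whereas each Pcdhb gene is a single long exon. Choice of alternate promoters in neurons is known to involve the insulator protein CTCF, cohesin and DNA methylation, while the C-type genes (Pcdhac1, Pcdhac2, Pcdhgc3, Pcdhgc4 and Pcdhgc5) are used more evenly across cells. GR is the nuclear receptor for glucocorticoids, and LSD1 (encoded by Kdm1a) removes mono- and dimethyl groups from histone H3.

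The Pcdha cluster spans chr18:36930285-37188897, the Pcdhb cluster chr18:37264998-37521419 and the Pcdhg cluster chr18:37661775-37841873 (mm10). Their lengths were 0.259, 0.256 and 0.180 Mb, and GC content was 40.5%, 40.4% and 45.1%, respectively. Annotated repeats took 40.1% of the Pcdha, 38.0% of the Pcdhb and 20.5% of the Pcdhg cluster. Pcdhg was thus the shortest of the 3 clusters, with the highest GC content and the lowest share of repeats. Constant exons of Pcdha lie at chr18:37156155-37156213, chr18:37159265-37159353 and chr18:37184946-37188897, and those of Pcdhg at chr18:37825021-37825079, chr18:37833265-37833353 and chr18:37839903-37841873.

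Across the 57 members, GR and LSD1 were all but absent from promoters, and the exception was Pcdhgc3. A promoter was counted when the midpoint of a peak lay between 1 kb upstream and 100 bp downstream of the transcription start site (TSS). Each member had 1 TSS, whereas other genes were counted at any of their TSSs, which can only raise the shares over all NM_ genes. In fed muscle, GR was called at 1 of 57 members (1.75%, exact 95% binomial interval 0.0444 to 9.39%), beside 15.1% of all NM_ genes. LSD1 was called in fed muscle at the same single member (1.75%), beside 25.4% of all NM_ genes. In starved muscle, no member had a GR promoter peak, beside 26% of all NM_ genes, and none had an LSD1 promoter peak, beside 18%. For both starved lists the exact interval of 0 of 57 reached 6.27%. Both GR and LSD1 were called at the promoter of 1 member in fed muscle (10.6% of all NM_ genes) and of none in starved muscle (10.4%). No member was in all 4 GR and LSD1 lists (4.69% of all NM_ genes). Counted over any of those 4 lists, 1 of 57 members had a promoter peak, beside 41.7% of all NM_ genes.

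Base composition of promoters moved with these shares. GC content of the promoter window had a median of 37.7% over the members (range 31.2 to 51.8%), beside 49.95% over all NM_ genes, and observed over expected CpG had a median of 0.360 beside 0.443. No member's promoter was CpG-rich, defined here as a GC content of at least 50% with an observed over expected CpG of at least 0.6. For a gene with several TSSs the highest value of each measure was taken, so the 2 could come from different promoters. Among the 15190 NM_ genes without a CpG-rich promoter, the share with a promoter peak was 8.87% for GR fed, 16.6% for GR starved, 14.8% for LSD1 fed and 11.4% for LSD1 starved. Among the 5810 genes with such a promoter the shares were 31.4%, 50.7%, 53.1% and 35.3%. The members' shares of 1.75%, 0%, 1.75% and 0% lay below the genes without CpG-rich promoters in each of the 4 lists. The exact upper bound of the members' share was above the background of genes without CpG-rich promoters for GR fed (9.39% against 8.87%) and under it for GR starved, LSD1 fed and LSD1 starved. These bounds treat the members as independent, although they are neighbours at 1 locus, so the comparison is a description only. The part of base composition in the members' counts was not tested further.

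Sequence uniqueness was measured because the members resemble each other. In 48 of 57 member promoters every stretch of 50 bases, the read length of the study, occurred only once in the genome, and the lowest value was 90.3% of stretches (Pcdhgb4 and Pcdhga10). Hence unique 50-base reads could be placed across most of each member's promoter window. Genes with several TSSs were not measured on the same footing, so no share over all NM_ genes is set beside these values. Over whole clusters, 83.2% of the stretches were unique in Pcdha, 87.5% in Pcdhb and 96.4% in Pcdhg.

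**Figure D1:**
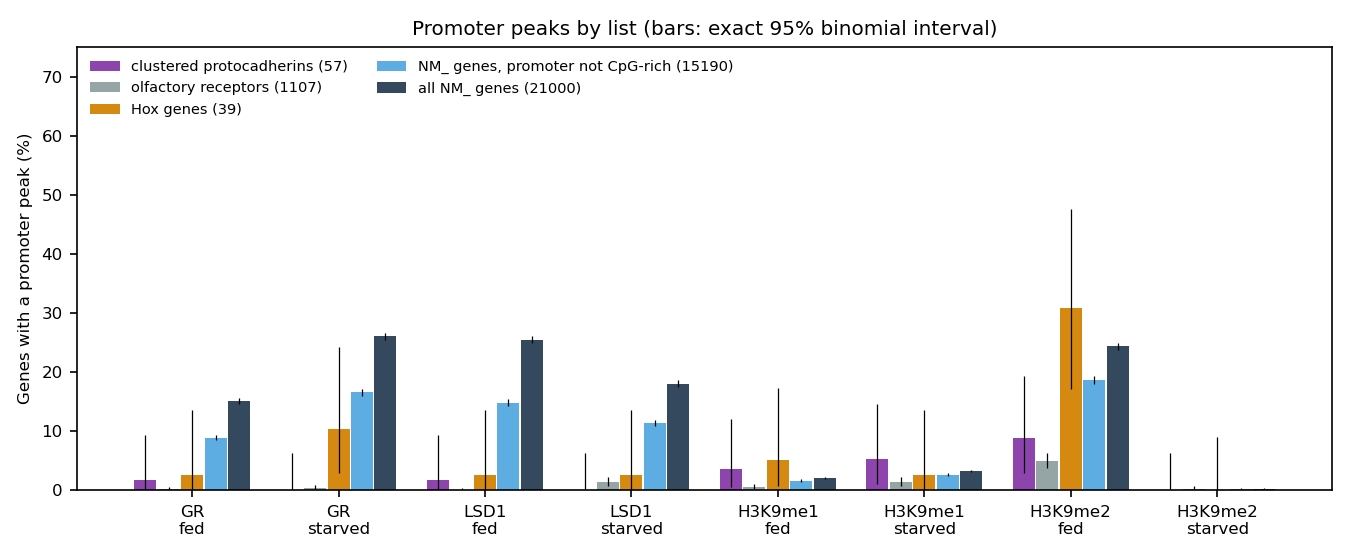
Percent of genes with a promoter peak in each of the 8 lists (y axis, linear from 0) for the 57 clustered protocadherins, 1107 olfactory receptor genes, 39 Hox genes, 15190 NM_ genes without a CpG-rich promoter and all 21000 NM_ genes. Bars are shares and thin lines exact 95% binomial intervals. In the 4 GR and LSD1 lists the protocadherins reach at most 1.75%, and all NM_ genes lie between 15.1% and 26%.

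Other families of tandem genes were set beside the protocadherins. Among 1107 olfactory receptor genes, whose promoters are likewise used in neurons, 1 had a GR promoter peak in fed and 3 in starved muscle, and 0 and 15 had an LSD1 peak. Among 39 Hox genes, encoding transcription factors of the body axis, GR was called at 1 promoter in fed and 4 in starved muscle, and LSD1 at 1 in each condition. The 446 other NM_ genes of chromosome 18 gave 16.8% for GR fed and 30.5% for LSD1 fed. In each of the 4 GR and LSD1 lists the shares of all 3 families were below that of the other genes of chromosome 18, which was 27.6% for GR starved and 19.5% for LSD1 starved. Hox genes reached 10.3% for GR starved, with an exact interval of 2.87 to 24.2%.

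Pcdhgc3, a C-type member of the Pcdhg cluster with its TSS at position 37806410, had the strongest GR peak of the clusters. In fed muscle the GR peak at chr18:37806123-37806504 was centred 0.097 kb upstream of the TSS, with a fold enrichment over input of 5.35 and a q-value of 6.071e-14. It ranked 38 of 3171 NM_ genes with a GR fed promoter peak, whose median best fold was 3.04. In starved muscle the GR peak at chr18:37806205-37806841 had a fold enrichment of 3.07 and a q-value of 0.00145. It overlapped the fed peak, but its midpoint lay 0.113 kb downstream of the TSS, just past the window, which is why the member was not counted there. With any base of a peak in the window, Pcdhgc3 was also called in GR starved, and the background then was 32.2% of all NM_ genes. With the window extended to 1 kb downstream, GR starved was called at Pcdhgc3, Pcdhga6 and Pcdhgb4 (3 of 57, beside 34.7% of all NM_ genes), LSD1 starved at Pcdha4, Pcdha11 and Pcdhac1 (3, beside 24.6%) and H3K9me2 fed at 8 members (beside 34.2%). A GR peak thus overlapped the Pcdhgc3 promoter in both conditions, with the lower fold in starved muscle. The median fold of the whole GR list was also lower in starved (2.70) than in fed muscle (3.29).

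LSD1 was called at Pcdhgc3 in fed muscle at chr18:37806162-37806342, inside the GR fed peak, with a fold enrichment of 3.91 and a q-value of 0.0198. This fold ranked 3152 of 5337 LSD1 fed promoters, whose median best fold was 4.00. In starved muscle the nearest LSD1 midpoint was 30.5 kb downstream. H3K9me2 was called in fed muscle at 2 places in this promoter, at chr18:37806441-37806517 (fold enrichment 3.80, q-value 0.00508), which also overlapped the GR fed peak, and at chr18:37805424-37805473 (fold 3.29). H3K9me1 had no peak in the window in either condition, and the nearest lay 5.06 kb downstream in starved muscle. Another GR fed peak at chr18:37807009-37807191 (fold 3.07, q-value 0.0155) lay 0.69 kb downstream within the variable exon of Pcdhgc3.

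The promoter of Pcdhgc3 differed in composition from those of most members. Its observed over expected CpG of 0.772 was the highest of the 57, its GC content was 48.5%, and the GR fed peak had a GC content of 62.8%. Promoters of clustered protocadherins are known for a conserved element with the core CGCT. This core, searched on both strands, was found 15 times in the Pcdhgc3 window, the most of any member, and at least once in 57 of 57 member windows, beside 85.9% of all NM_ promoters. The median number of matches was lower over the members, at 3 beside 4 over all NM_ genes. The palindromic glucocorticoid response element bound by GR, searched with at most 1 mismatch, was found in 0 of 57 member promoters, beside 0.724% of all NM_ promoters. The palindromic motif of NRF1, a factor of CpG-rich promoters, searched with no mismatch, was found in 0 of 57, beside 1.75%. A match is not a bound site, and a window without a match says nothing about the factor.

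**Figure D2:**
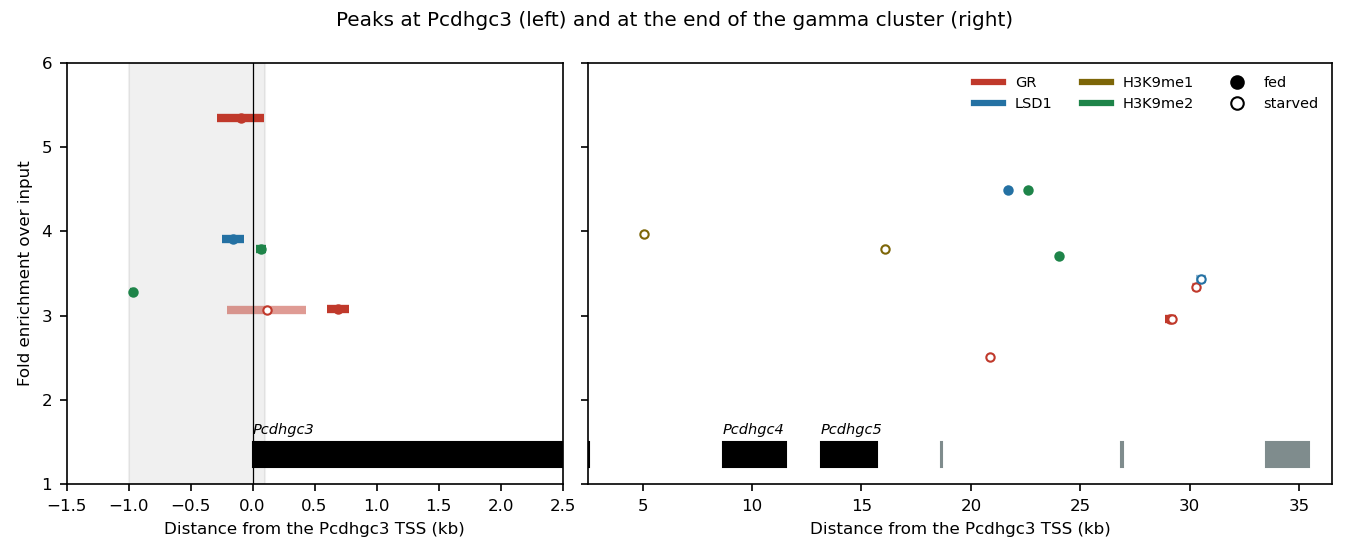
Fold enrichment over input (y axis, starting at 1) of peaks around Pcdhgc3 (left) and downstream of it to the end of the Pcdhg cluster (right), against the distance from the Pcdhgc3 TSS in kb. Horizontal bars span peaks, dots are midpoints (filled, fed, and open, starved), black boxes are variable exons, grey boxes constant exons, and the shaded band is the promoter window. The GR fed peak at 5.35 stands above the GR starved peak at 3.07, and both cross the TSS.

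**Figure D3:**
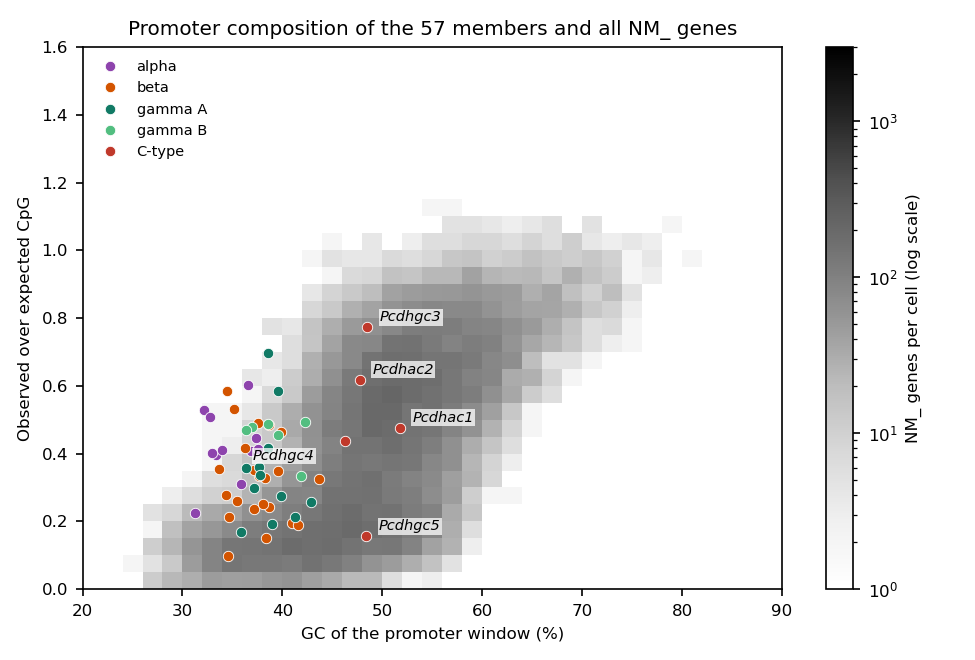
Observed over expected CpG (y axis) against GC content in percent (x axis) of the promoter windows of the 57 members, coloured by family, over the number of NM_ genes in each cell in grey (log scale). The 5 C-type members lie at 46.2% GC or above, and Pcdhgc3 is the highest member at 0.772.

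The other C-type members had no promoter peak in any of the 8 lists, although the GC content of their promoters was near that of Pcdhgc3. It was 51.8% for Pcdhac1, 47.8% for Pcdhac2, 46.2% for Pcdhgc4 and 48.4% for Pcdhgc5, and all 5 C-type windows were fully unique. By family, the median was 48.4% for the C-type genes, 34.9% for the other Pcdha genes, 37.6% for Pcdhb, 38.5% for the A and 39.1% for the B genes of Pcdhg. The peak nearest to Pcdhac1 was LSD1 starved at chr18:37090563-37090637, 0.464 kb into its variable exon (fold 4.44, q-value 0.00207). No GR peak lay within 173 kb of Pcdhac1 or 191 kb of Pcdhac2 in either condition. GR midpoints nearest to Pcdhgc4 lay 7.98 kb upstream in fed and 8.56 kb upstream in starved muscle. For Pcdhgc5 they lay 12.4 kb upstream in fed and 7.73 kb downstream in starved muscle.

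H3K9 methylation was called at few member promoters too, with H3K9me1 near its background and H3K9me2 in fed muscle below the share of all NM_ genes. H3K9me1 had a peak at 2 members in fed muscle (3.51%), beside 2.08% of all NM_ genes and 1.6% of those without a CpG-rich promoter. It had a peak at 3 members in starved muscle (5.26%), beside 3.2% and 2.56%. H3K9me2 had a peak at 5 members in fed muscle (8.77%, exact interval 2.91 to 19.3%), beside 24.4% of all NM_ genes and 18.6% of those without a CpG-rich promoter. It was called at no member in starved muscle, beside 0.19% and 0.23%. The member promoters with an H3K9me1 peak in fed muscle were those of Pcdhb14 (fold enrichment 4.84, q-value 0.000986) and Pcdhgb6 (3.77). In starved muscle they were those of Pcdha3 (3.92), Pcdha11 (3.78) and Pcdhga3 (4.16). The Pcdhb14 peak and these starved peaks were 49 bp long, the shortest length of their lists. No member promoter had H3K9me1 in both conditions, and neither did most other genes, since both lists called the promoters of only 0.114% of all NM_ genes. H3K9me2 in fed muscle was called at Pcdhgc3, Pcdha11 (4.16, q-value 0.00304), Pcdhb21 (3.37), Pcdha4 (3.25) and Pcdhga3 (3.23). Pcdha11 and Pcdhga3 had H3K9me2 in fed and H3K9me1 in starved muscle (2 of 57, beside 0.967% of all NM_ genes). At a q-value of 0.01 or less, or with equally long lists, no member promoter had H3K9me1 in starved muscle. Over all 8 lists, 8 of 57 members (14.04%) had a promoter peak, beside 51% of all NM_ genes, and Pcdhgc3 with 3 lists had the most.

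The absence of GR and LSD1 in fed muscle reached across nearly the whole locus. From the GR peak at chr18:36782869-36783141, 0.2 kb downstream of the TSS of Hars (histidyl-tRNA synthetase), no GR fed peak was called for 1023 kb until the Pcdhgc3 promoter, and 54 of 57 member TSSs lay in this stretch. LSD1 fed had a stretch of the same length, 1023 kb, between its peaks at Hars and Pcdhgc3, with the same 54 members. Of the stretches between neighbouring peaks of a list, 96.3% were shorter for GR fed and 96.8% for LSD1 fed, and their medians were 34.3 and 30.5 kb. Long stretches of this kind were therefore not rare in the genome, as the GR fed one ranked 522 of 14056. Slc25a2 and Taf7, which lie between the Pcdhb and Pcdhg clusters, and Zmat2 also start inside both stretches.

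In starved muscle these stretches were broken up. The longest stretch without a GR peak that held members was 418 kb (20 TSSs), and that without an LSD1 peak was 252 kb (14 TSSs). The starved lists were longer, with 37783 against 14108 GR peaks and 66332 against 16616 LSD1 peaks. The text of the study describes an LSD1 list that is shorter after starvation, so the deposited LSD1 starved list is not the set of peaks described there, and every LSD1 starved value here rests on the deposited list. The median distance from a member TSS to the nearest GR midpoint was 209 kb in fed and 22.1 kb in starved muscle, beside 46.8 and 9.91 kb over all NM_ genes. For LSD1 it was 209 and 33.3 kb, beside 26.6 and 8.28 kb. Member TSSs were further from GR and LSD1 peaks than the median NM_ gene in both conditions. For H3K9me1 they were slightly closer, with 49.9 kb in fed and 14.2 kb in starved muscle beside 55.02 and 21.0 kb. For H3K9me2 they were further away, with 5.18 kb in fed and 1055 kb in starved muscle beside 2.54 and 303 kb.

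**Figure D4:**
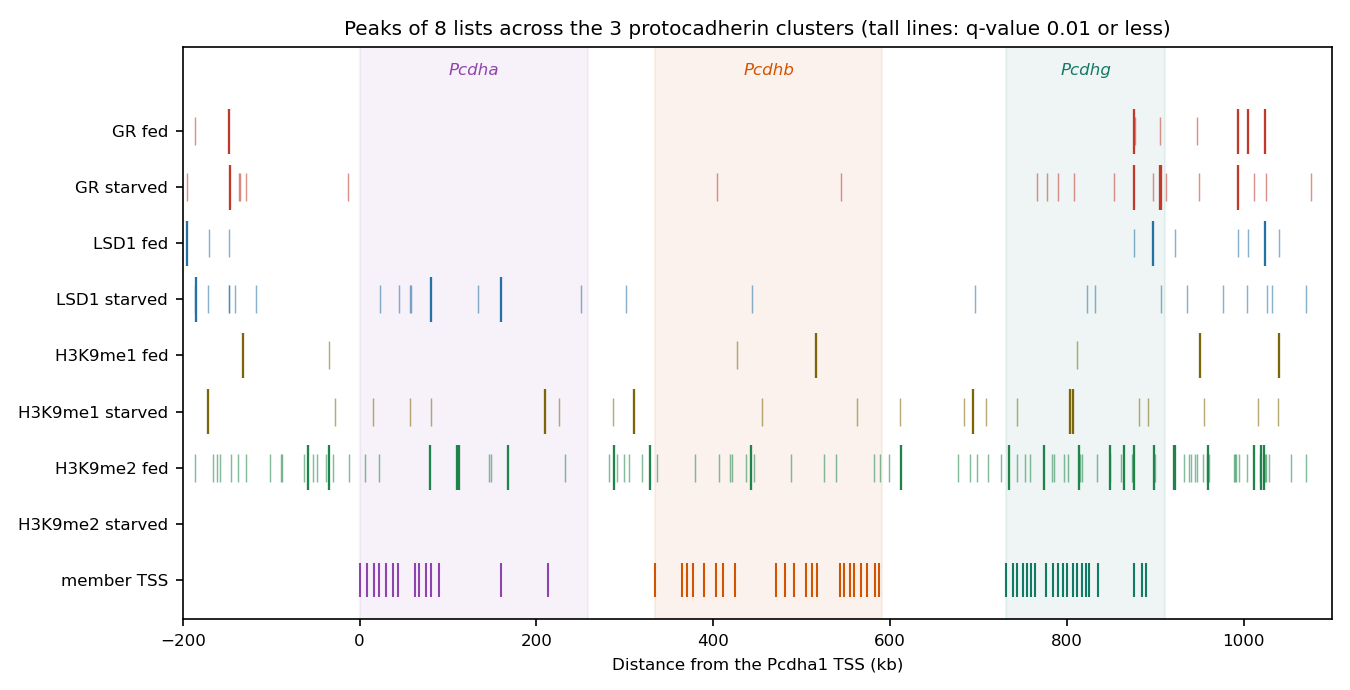
Midpoints of the peaks of each of the 8 lists (rows) and TSSs of the 57 members (lowest row) against the distance from the Pcdha1 TSS in kb, with the 3 clusters shaded. Tall lines are peaks at or under a q-value of 0.01 and short lines the other peaks. GR fed and LSD1 fed have no peak in the Pcdha and Pcdhb clusters, and H3K9me2 starved has none in the region shown.

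Counted across the clusters, peaks of GR were found in Pcdhg and hardly in Pcdha or Pcdhb. GR fed had 3 peaks, all in Pcdhg, and GR starved had 11, of which 0 lay in Pcdha, 2 in Pcdhb and 9 in Pcdhg. In Pcdhg this came to 16.7 peaks per Mb in fed muscle (exact 95% Poisson interval 3.44 to 48.7) beside 5.32 per Mb of the genome, and to 49.97 per Mb in starved muscle (22.9 to 94.9) beside 14.2. The ratio to the genome was 3.13 in fed and 3.52 in starved muscle, so that the density followed the longer list. Pcdha and Pcdhb held 0 GR fed peaks, where the density of the genome gives 1.38 and 1.36. The exact intervals of these zeros reached 14.3 and 14.4 per Mb, above the genome's 5.32. For the 0 GR starved peaks in Pcdha, the density of the genome gives 3.68, and the interval reached 14.3 per Mb beside the genome's 14.2. Pcdhg was also the cluster with the highest share of unique stretches (96.4%) and the highest GC content, and the part of either in its density was not tested. The 1 Mb before Pcdha held 14 GR fed and 36 GR starved peaks, 2.63 and 2.53 times the density of the genome. The 1 Mb after Pcdhg held 10 and 25, or 1.88 and 1.76 times. These flank densities lay within the intervals of Pcdhg, so a higher GR density was not particular to that cluster. Over the 3 clusters together the ratio to the genome was 0.812 for GR fed and 1.11 for GR starved.

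LSD1 in fed muscle was found in Pcdhg only, as GR was, and its distribution differed from that of GR in the starved lists. LSD1 fed had 2 peaks, both in Pcdhg, and 0.460 times the density of the genome over the 3 clusters. LSD1 starved had 12 peaks, 8 in Pcdha, 1 in Pcdhb and 3 in Pcdhg, and a ratio of 0.692. In Pcdha, LSD1 went from 0 to 30.9 peaks per Mb (13.4 to 61.0), beside 24.9 per Mb of the genome in starved muscle, whereas GR had no Pcdha peak in either list. For Pcdha the density of the genome gives 6.45 LSD1 starved peaks, near the 8 found, and 1.62 LSD1 fed peaks. The exact interval of the 0 LSD1 fed peaks found reached 14.3 per Mb, beside 6.26 per Mb of the genome. Of the 12 LSD1 starved peaks, 2 were at or under a q-value of 0.01, beside 10.2% of the whole list. None of the 12 was overlapped by an LSD1 fed peak, beside 5.85% of the whole LSD1 starved list.

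H3K9me2 in fed muscle was the densest list, with 9 peaks in Pcdha, 13 in Pcdhb and 22 in Pcdhg. The Pcdhg value of 122 per Mb (76.6 to 185) was 1.89 times that of the genome, and those of Pcdha and Pcdhb, 34.8 and 50.7 per Mb, were 0.538 and 0.784 times. The 1 Mb before Pcdha and the 1 Mb after Pcdhg held 102 and 104 peaks, 1.58 and 1.61 times the density of the genome and within the interval of Pcdhg. In starved muscle, no H3K9me2 peak was called between chr18:35149679 and chr18:38528272, a stretch of 3379 kb that held all 57 members and ranked 54 of 6508 in that list. The whole list was short, with 2.47 peaks per Mb of the genome. H3K9me1 had 3 peaks in fed muscle (0, 2 and 1 in Pcdha, Pcdhb and Pcdhg) and 12 in starved muscle (5, 2 and 5), at 0.812 and 1.21 times the density of the genome. The fed and starved counts of both marks stood in the order of the lengths of their lists.

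**Figure D5:**
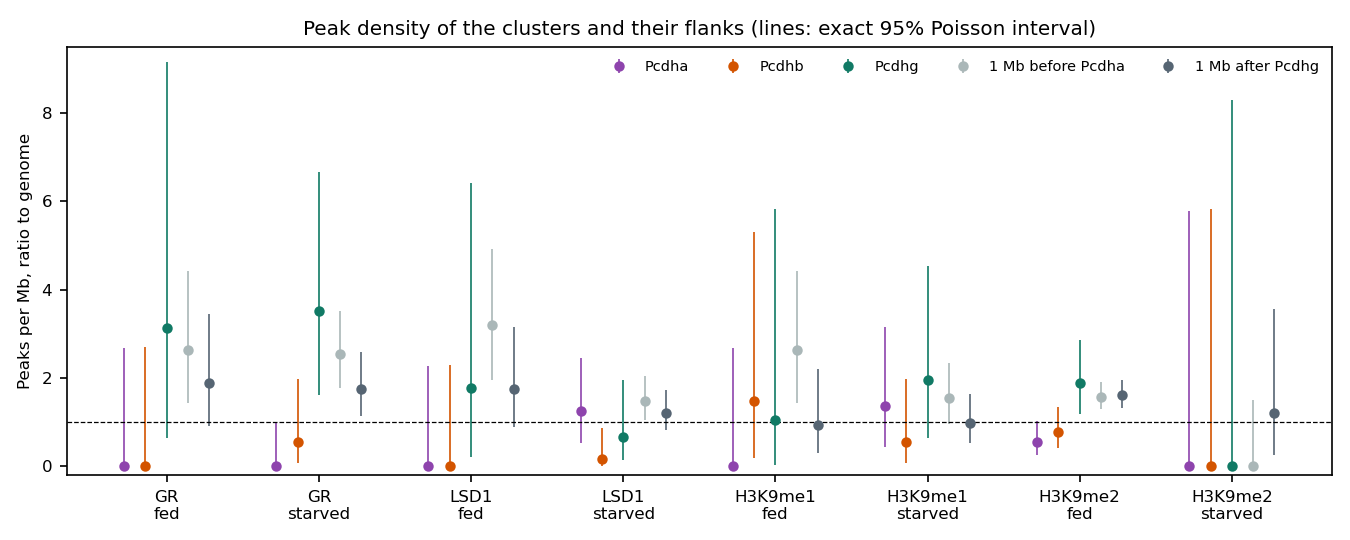
Peaks per Mb divided by peaks per Mb of the genome (y axis, linear) in the Pcdha, Pcdhb and Pcdhg clusters and in the 1 Mb on either side, for each of the 8 lists. Dots are ratios, lines exact 95% Poisson intervals of the region's count, and the dashed line is the genome. GR starved in Pcdhg lies at 3.52 and H3K9me2 fed in Pcdhg at 1.89, both with intervals above 1, and LSD1 starved in Pcdhb lies at 0.156.

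The peaks of highest fold in each cluster were mostly away from promoters. In Pcdha they were, for LSD1 starved, the peak in the variable exon of Pcdhac1, for H3K9me1 starved chr18:37140568-37140616 (fold 4.54, 3.09 kb upstream of Pcdhac2), and for H3K9me2 fed chr18:37042720-37042769 (fold 4.52, 22.5 kb downstream of the Pcdha12 TSS). In Pcdhb they were, for GR starved, chr18:37334845-37335274 (fold 2.67) in Pcdhb6, and for LSD1 starved chr18:37374200-37374268 (fold 3.35). For H3K9me1 the highest in Pcdhb were the peak upstream of Pcdhb14 in fed and chr18:37385624-37385799 (fold 3.73) in starved muscle, and for H3K9me2 fed chr18:37373320-37373374 (fold 4.19). In Pcdhg the highest H3K9me1 peak was that upstream of Pcdhgb6 in fed muscle and chr18:37733511-37733564 (fold 5.02, q-value 0.00024), in the variable exon of Pcdhgb5, in starved muscle. The highest H3K9me2 fed peak there was chr18:37704014-37704067 (fold 4.75), 3.06 kb upstream of Pcdhga6.

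Variable exons, which encode the extracellular cadherin repeats and are counted here with the Pcdhb exons, held most of the GR starved peaks. Of the 11 GR starved peaks, 7 had their midpoint in a variable exon: those of Pcdhb6, Pcdhb15, Pcdhga5, Pcdhga6, Pcdhgb4, Pcdhga9 and Pcdhgc3. Their folds ran from 2.54 to 3.07, and Pcdhgc3 alone of the 7 was at or under a q-value of 0.01, beside 34.7% of the whole GR starved list. The 57 variable exons, of 2590 bp in the median and 0.165 Mb in all, had a GC content of 51.9% in the median. The density of GR starved midpoints in them was 42.4 per Mb (17.1 to 87.4), beside 64.5 per Mb of all NM_ exons of the genome. LSD1 starved had a midpoint in 5 variable exons (Pcdha4, Pcdha7, Pcdha11, Pcdhac1 and Pcdhgb7), that of Pcdha11 with a fold of 4.38 and a q-value of 0.00286, and a density of 30.3 per Mb (9.84 to 70.7) beside 58.5 per Mb of all NM_ exons. LSD1 fed had none, beside 44.1 per Mb of all NM_ exons. In the median, 95.5% of the 50-base stretches of a variable exon were unique, with the lowest value of 73.5% in Pcdha6.

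At the 3′ end of Pcdhg, GR and LSD1 were called in the introns between the constant exons that all Pcdhg genes share. Between the second and the last constant exon, GR fed was called at chr18:37835273-37835777 (fold 2.96, q-value 0.0223) and GR starved at chr18:37835435-37835751 (fold 2.96, q-value 0.00546), overlapping each other. About 1 kb further, the GR starved peak at chr18:37836501-37836915 (fold 3.34, q-value 0.000309), the highest of that list in the clusters, overlapped an LSD1 starved peak at chr18:37836703-37837142 (fold 3.43, q-value 0.0462). The highest LSD1 fed peak of the clusters lay between the first and the second constant exon at chr18:37828081-37828135 (fold 4.49, q-value 0.00129). Its length of 55 bp was the shortest of that list. No peak midpoint of any list fell in a constant exon of either cluster.

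Overlap of GR peaks between conditions and with LSD1 was given by few peaks. GR starved overlapped 2 of the 3 GR fed peaks, at Pcdhgc3 and at the 3′ end, beside 65.8% of the whole GR fed list, and GR fed overlapped 2 of the 11 GR starved peaks, beside 24.5%. LSD1 fed overlapped 1 of 3 GR fed peaks (48.3% of the whole list), at Pcdhgc3, and LSD1 starved overlapped 1 of 11 GR starved peaks (14.7%), at the 3′ end. Neither LSD1 fed peak was overlapped by LSD1 starved (23.1% of the whole list) or by H3K9me2 fed (16.8%). The counts were too small to set these shares apart from those of the whole lists, as the exact interval for 2 of 3 ran from 9.43 to 99.2%.

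Genes that act with the clustered protocadherins were counted in the same way. Over any GR or LSD1 list (41.7% of all NM_ genes), 12 of 18 regulators of clustered protocadherin chromatin had a promoter peak (66.7%, exact interval 41.0 to 86.7%). Of them, 10 had a peak in LSD1 fed (55.6% of the 18), beside 25.4% of all NM_ genes. The highest were Atf7ip (LSD1 fed fold 4.54), a partner of the H3K9 methyltransferase SETDB1, Dnmt3a (4.46), a DNA methyltransferase, Ehmt2 (4.27), an H3K9 methyltransferase, and Stag2 (4.05), a cohesin subunit. Nipbl, which loads cohesin, was in all 4 lists. Of 13 partners downstream of the protocadherins at the membrane, 10 had a promoter peak (76.9%, 46.2 to 94.96%), with the highest fold at Wasf1 (LSD1 fed 5.17) and Brk1 (4.44), both of the WAVE complex that drives actin branching. Among NM_ genes with a CpG-rich promoter, the share was 74.3% for any GR or LSD1 list and 53.1% for LSD1 fed. The regulators and partners were not split by promoter composition.

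Relatives outside the clusters were counted too. Of 12 non-clustered protocadherins, 3 (25%) had a GR or LSD1 promoter peak, beside 41.7% of all NM_ genes. They were Pcdh10 (GR fed 3.06), Pcdh7 (GR starved 2.62) and Pcdh18 (GR starved 2.61). Of 19 cadherins, 4 had a peak, each in LSD1 starved: Cdh12 (3.72), Cdh7 (3.56), Cdh24 (3.50) and Cdh15 (3.06), the cadherin of muscle precursor cells. The lists are short and were not tested against the background.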

How the data were processed

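Skeletal muscle of fed and 24 h starved mice was profiled by ChIP-seq, 1 library per antibody and condition, and groups were taken from the labels. Per the study's methods, single-end 50-base reads were demultiplexed and mapped to mm10, uniquely mapped reads were kept, and broad peaks were called with MACS2 against input. The labels name bcl2fastq 2.20.0.422. The methods name a false discovery rate limit of 0.01, but the largest q-value in the deposited lists was 0.0925 to 0.0998; all deposited peaks were used, and the limit was applied as an alternative. The deposited columns used were the fold enrichment over input (a ratio) and −log10 of a p-value and of a q-value, with only the q-value and the fold enrichment printed. Read counts were not used here, so depth is unknown.

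Starts were converted to 1-based coordinates. TSSs were taken from the RefSeq annotation of GRCm38 (37867 NM_ transcripts of 21000 genes). A gene was called where a peak midpoint lay between 1 kb upstream and 100 bp downstream of a TSS of any NM_ transcript. Shares were given exact Clopper-Pearson 95% binomial intervals and densities exact Poisson 95% intervals. Overlap required 1 bp. Composition, motifs and uniqueness of 50-base stretches (both strands) were computed from the reference genome; sequences of this chromosome are not printed. Python 3.11.15, numpy 2.4.6, pandas 2.3.3, scipy 1.17.1 and matplotlib 3.10.9 were used, and the counting steps were tested on simulated data. The members, gene lists and settings were chosen with earlier results of these data known. Named members were those with a GR or LSD1 promoter peak, the 5 C-type genes and the peak of highest fold in each list and cluster. Other gene lists were given with at most 4 examples of highest promoter fold, with Nipbl added for its count. Members with peaks of H3K9me1 or H3K9me2 only, members with peaks in variable exons, the peaks at the 3′ end of Pcdhg and the genes around the stretches without peaks were named after their values were seen, and the split of genes by CpG-rich promoters, the motif searches and the stretches without peaks were also added then. Promoter definition, peak threshold, list length and overlap were varied.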

Additional observations from a re-analysis of the deposited data

Results flagged for a closer look

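Over the 3 clusters, the peak numbers of both H3K9 marks went in opposite directions on starvation. For H3K9me1 they were 3 (fed) and 12 (starved), and for H3K9me2 they were 44 (fed) and 0 (starved). With 1 library behind each count, this contrast was not tested. The whole lists went the same way, from 14178 to 38023 peaks for H3K9me1 and from 171402 to 6624 for H3K9me2. Library codes changed with feeding for both marks, so that condition and code cannot be told apart.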

How the results depend on the processing

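No paired analysis was possible because each group had 1 library. The GR fed count of 1 member, Pcdhgc3, stayed at 1 in each of the alternatives tried, and the H3K9me2 starved values stayed at 0. With a q-value of 0.01 or less, members with a promoter peak were 0 for LSD1 fed, 1 for H3K9me1 fed, 0 for H3K9me1 starved and 2 for H3K9me2 fed. With a q-value of 1e-05 or less, or with a fold enrichment of at least 5, they were 0 for each of these 4 lists. With equally long fed and starved lists, they were 0 for H3K9me1 starved and 0 for H3K9me2 fed. Without peaks of the shortest length, they were 1 for H3K9me1 fed and 0 for H3K9me1 starved. With any base of a peak in the window, GR starved had 1 member (background 32.2%). With the window extended to 1 kb downstream, GR starved had 3 (34.7%), LSD1 starved 3 (24.6%) and H3K9me2 fed 8 (34.2%).

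Cluster density over genome density for GR fed was 0.384 at a q-value of 0.01 or less and 2.43 at a fold of at least 5. At a q-value of 0.01 or less it was 1.15 for LSD1 starved and 0.675 for H3K9me1 starved. At a q-value of 1e-05 or less it was 0 for GR starved, LSD1 fed, LSD1 starved, H3K9me1 fed, H3K9me1 starved and H3K9me2 fed, and at a fold of at least 5 it was 0 for the same lists except H3K9me1 starved. For LSD1 fed it was 0.252 without the shortest peaks and 0.225 in covered base pairs. With equally long lists it was 0.543 for H3K9me1 starved and 1.75 for H3K9me2 fed.

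GR starved overlapped 100% of GR fed cluster peaks at a q-value of 0.01 or less, and 0% at 1e-05 or at a fold of at least 5. LSD1 fed overlapped 0% of GR fed cluster peaks at all 3 thresholds. GR fed overlapped 66.7% of GR starved cluster peaks with equally long lists. LSD1 starved overlapped 0% of GR starved cluster peaks at a q-value of 0.01 or less and with equally long lists. Stricter thresholds leave few peaks; other causes were not tested. The other 100 values of the members and clusters were not counted as moved. Of the alternative shares over all NM_ genes, 20 were counted as moved and 4 were not. Overlap shares and shares over all NM_ genes were judged by the exact interval of the main value. Counts, densities and composition medians were judged by their distance from the main value. Depth is unknown, and 1 library per group limits every comparison between conditions.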
